A study of Mus musculus with 12 samples.

Results

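The semaphorins, ephrins, netrins and Slits are ligands that steer growing axons, vessels and migrating cells, and they are described here with their receptors in cells of the dermal papilla, a mesenchymal cluster enclosed by the base of each hair follicle. The members were chosen by gene symbol, with earlier results of these data known, and number 68 of the 25887 genes in the deposited tables. Sema5a was left out by the rule. They comprise 7 secreted semaphorins, 12 membrane-bound semaphorins, 9 plexins, 2 neuropilins, 5 ephrin-A ligands, 3 ephrin-B ligands, 9 EphA receptors, 5 EphB receptors, 5 netrins, 4 Unc5 receptors, 3 Slits and 4 Robo receptors. RNA sequencing libraries were made from mouse dermal papilla cells sorted by FACS, with ribosomal RNA removed, from Smo* mutants and wild type (WT). Smo* is a gain-of-function form of Smo, the membrane protein that passes on the Hedgehog signal, and the labels place it in the dermal papilla. The driver of the Smo* allele, the marker used for the sort and whether a library came from 1 animal or a pool are not given in the sources used here. The 4 groups hold 3 libraries each. P28 Smo* were males at postnatal day 28 labelled anagen I-III, the early growth stage, and P28 WT were males at postnatal day 28 labelled anagen VI, the full growth stage. P20 Smo* and P20 WT were females at postnatal day 20 in telogen, the resting stage. Genotype and stage therefore cannot be told apart at P28, and age, sex and stage cannot be told apart between P28 and P20.

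Semaphorins signal through plexins, and most secreted ones need a neuropilin as co-receptor. Ephrins are held in the membrane, ephrin-A by a lipid anchor and ephrin-B by a transmembrane segment, so they meet Eph receptor kinases on touching cells and can signal back into the cell that carries them. Netrins attract through Dcc and repel through Unc5, while the lipid-anchored netrin-G proteins Ntng1 and Ntng2 bind other partners; Slits repel through Robo. Beyond the nervous system these families act in vessel growth, tissue borders and cell sorting, and dermal papilla cells sit close to the nerves, vessels and epithelium of the follicle.

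The libraries held 36323058 to 48926831 reads on genes, and 3 reads correspond to 2.56 to 3.56 normalized counts, which covers counting error only. As a check of the labels, the Hedgehog targets Gli1 and Ptch1 were higher in Smo* at P28 by 1.52 and 1.51 and at P20 by 1.63 and 2.87 on the log2 scale. Hhip, another target, was 3.53 higher at P20 and gave −0.73 at P28 (limma adjusted p = 0.43), and Smo itself gave 0.46 at P28 (limma adjusted p = 0.0502) and 0.47 at P20 (limma adjusted p = 0.111). The 16 dermal papilla markers summed to 232643, 358697 and 53301 normalized counts in P28 Smo*, against 416849 to 497787 in P28 WT, and to 77624 to 102755 in P20 Smo*, against 60426 to 78988 in P20 WT, with none at 0 over a group. Hhip is 1 of the 16 and averaged 14013.5 in P20 Smo*, against 1229 in P20 WT. By limma, Sox18 was called higher in Smo* at both ages and Hhip at P20. Corin, Crabp1, Fgf10, Lef1 and Rspo4 were called lower in Smo* at P28. P28 Smo* replicate 3 stood apart: it had the lowest marker sum of all libraries, and 15453 genes had a read in it, against 17337 to 17926 in the others. Counts of members called in comparisons that use it are therefore given with and without it, while overlap counts, unadjusted counts and medians include it. The 7 dermal fibroblast markers summed to 7836230 to 11548600 normalized counts in P28 Smo*, against 4759550 to 7242260 in P28 WT, and to 6070770 to 6828980 in P20 Smo*, against 8130210 to 8905050 in P20 WT. Col1a1 made up most of these sums, at 7558540 to 11210300 in P28 Smo* and 4552450 to 6973800 in P28 WT. By limma none of the 7 was called higher in Smo* at either age. Pdgfra was called lower in Smo* at P28 and Dpt at P20. The 9 keratinocyte markers summed to 246 to 360 in P28 Smo*, against 452 to 987 in P28 WT, and to 293 to 640 in P20 Smo*, against 537 to 1419 in P20 WT. The 4 skeletal muscle markers summed to 71.6 to 160 in P28 Smo*, against 43.5 to 57.1 in P28 WT, with 1 of them at 0 in every library of each WT group, and overlapped at P20. Sums of Schwann cell, melanocyte, immune and smooth muscle markers overlapped between the genotypes at both ages, with 1 immune marker at 0 in every P28 Smo* library. Mitf made up most of the melanocyte sums and Csf1r most of the immune sums. In these lists the Schwann cell marker Cdh19 was called lower in Smo* at P28 (−3.37, limma adjusted p = 0.00291). The smooth muscle marker Cnn1 was called higher there (1.21, limma adjusted p = 0.0307). No other marker of these lists was called between genotypes at either age. The part of the marker differences in the levels below was not tested. In such bulk samples fewer cells of a type and less RNA per cell cannot be told apart. The labels do not say that libraries of a group came from separate animals, so the p-values rest on a spread between libraries that may be technical alone.

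Nearly all guidance genes were detected: 63 of 68 had a read in every library and 36 averaged at least 1000 normalized counts over the 12 libraries. Per kilobase of exon, the median member with a mean of at least 10 (62 genes) stood at 174 normalized counts, beside 114 for all 14790 such genes. Slit3 had the highest level at 3249 per kilobase, followed by the netrin Ntn1 at 1629, the secreted semaphorin Sema3b at 1593, the plexin Plxnb2 at 1216 and Sema3c at 1064. Ephb4, a receptor for ephrin-B2 best known from veins, led the Eph receptors at 962 per kilobase, and Efnb1 led the ephrins at 913. The highest members of the remaining families were Sema4c at 564 per kilobase, Efna5 at 474, Robo2 at 442, Nrp2 at 435, Unc5b at 349 and Epha4 at 304. At the low end, 6 members averaged under 10 normalized counts: Epha10, Epha5, Epha6, Ntn5, Slit1 and Robo3, with highest values of 11.8, 20.9, 48.4, 21.9, 28.9 and 11.8 in any library. All 11 reads of Robo3, known for axons that cross the midline, came from P28 Smo* replicate 3.

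**Figure D1:**
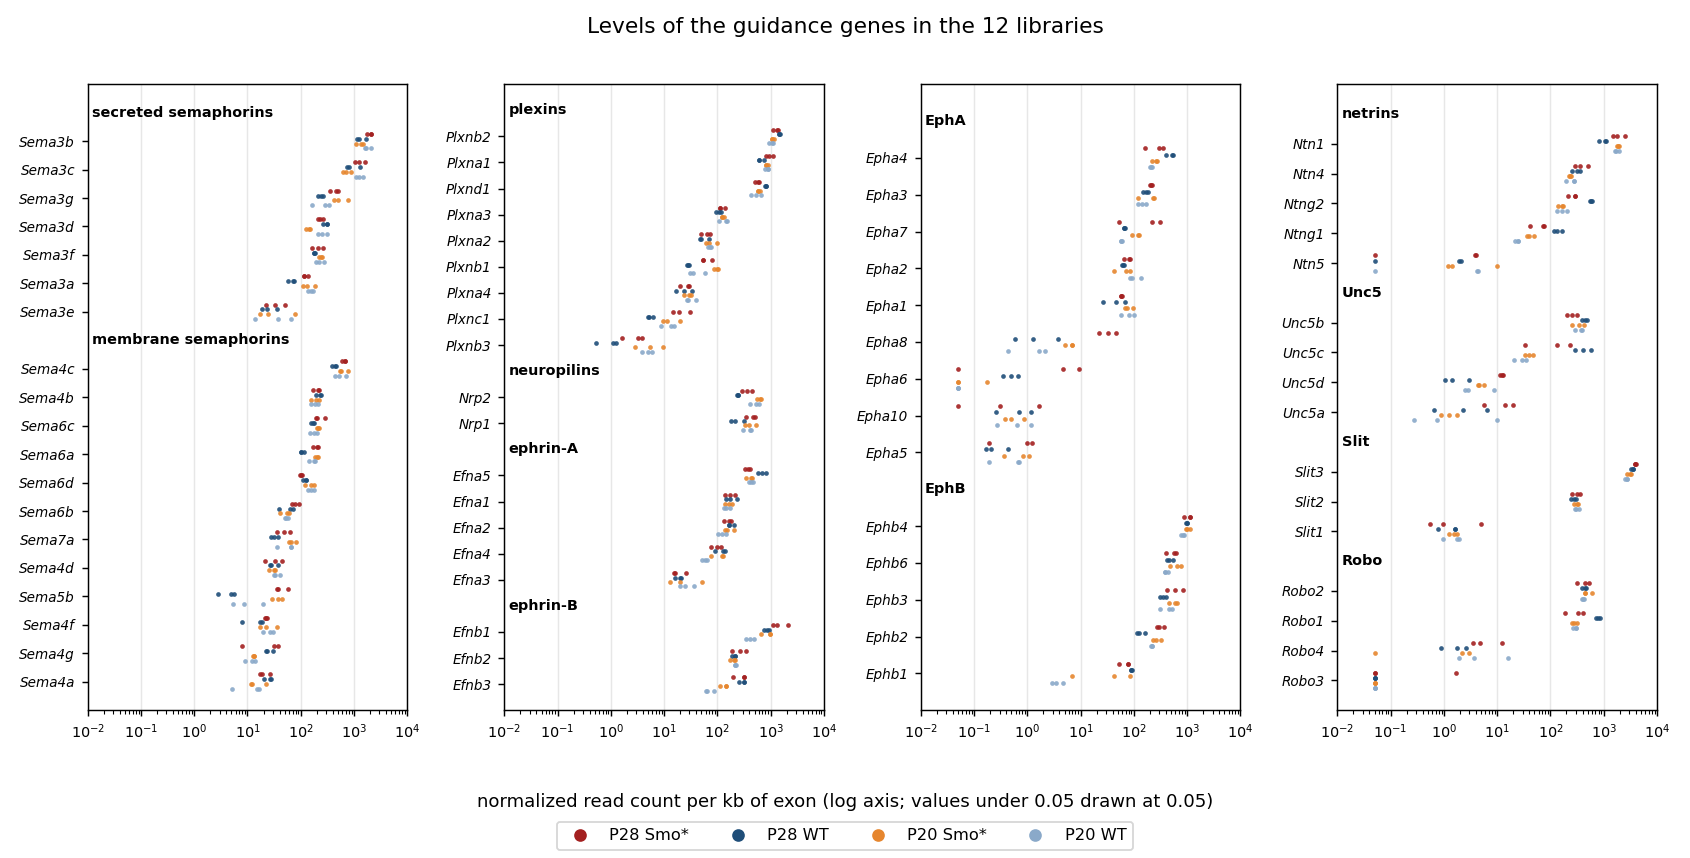
Level of the 68 guidance genes in normalized counts per kilobase of exon on a log axis, with 1 point per library coloured by group and the genes grouped by family and ordered by mean. Slit3 lies highest, with a mean of 3249, while Slit1 of the same family has a mean of 1.63.

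At P28, 12 guidance genes were higher and 6 lower in Smo* than in WT, of 64 tested; here and below, a gene is called when its adjusted limma p is under 0.05, unless another tool is named. Those higher were the semaphorins Sema5b, Sema3a, Sema3g, Sema6a and Sema4c, the semaphorin receptors Plxnc1, Plxnb1 and Nrp1, the Eph receptors Epha8 and Ephb2, the netrin Ntn1 and the netrin receptor Unc5d. Those lower were Robo1, the netrin-G genes Ntng1 and Ntng2, Efna5, Unc5b and Plxnd1. Of all 14757 genes tested, 8.9% were called at P28, with 4.05% higher and 4.85% lower. The median member differed by 0.29 on the log2 scale, against −0.01 for all genes tested. The Smo* and WT libraries did not overlap for 23 members that were higher and 11 that were lower in Smo*, beside 33.4% of all genes tested (15.6% higher and 17.8% lower). Without P28 Smo* replicate 3 the count was 15 higher and 7 lower: Nrp1 was no longer called, and Efnb1, Efnb2, Epha6, Epha7 and Unc5c were. The count was 7 without P28 WT replicate 3 and 9 without P28 WT replicate 2. It was 24 with DESeq2, 23 in the fit of all 12 libraries and 27 in the authors' deposited table, which held all 18 and also called Efnb1, Epha6, Epha7, Ephb3, Nrp2, Plxna1 and Sema3b higher and Epha4 and Unc5c lower.

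At P20 the receptor gene Epha7 was the 1 member of 63 tested that passed the test, being higher in Smo*, and 19 members (30.2%) had an unadjusted limma p under 0.05, beside 11.4% of all genes tested. Of all 14645 genes tested, 0.696% were called at P20, 0.485% higher and 0.212% lower. The median member differed by 0.14 on the log2 scale, against 0.00 for all genes. The groups did not overlap for 16 members that were higher and 4 that were lower in Smo*, beside 16.4% of all genes (8.04% higher and 8.34% lower). It was 0 without P20 Smo* replicate 2, P20 WT replicate 1 or P20 WT replicate 2, 3 without P20 WT replicate 3, and 2 without either other P20 Smo* library. The count depends on the tool: DESeq2 on the recovered reads called 12 members, 10 of them higher, and the authors' deposited table called 10, 9 of them higher. In the authors' deposited table those higher were Efna4, Efnb1, Efnb3, Epha8, Ephb1, Ntng1, Plxnb1, Sema3g and Sema5b, and the lower one was Sema3d.

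**Figure D2:**
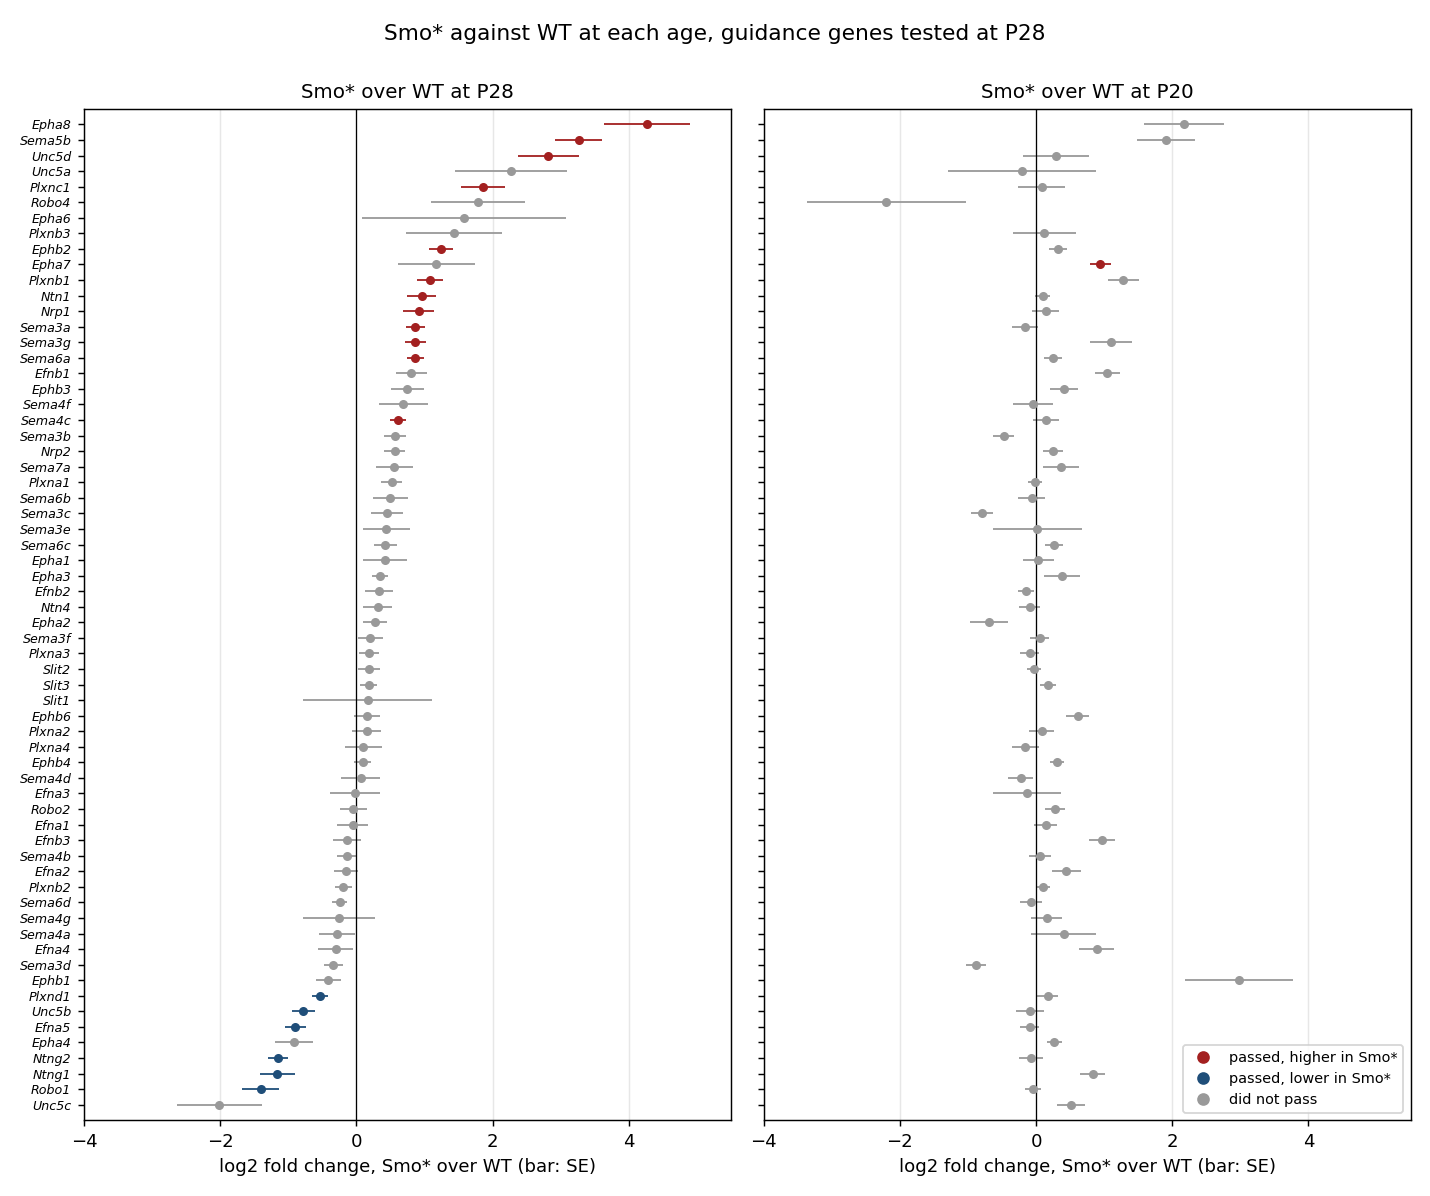
Difference between Smo* and WT of the 64 guidance genes tested at P28, as the limma log2 fold change (Smo* over WT) with its standard error as a bar, at P28 on the left and at P20 on the right. Red and blue points passed the adjusted threshold: 18 genes at P28, which run from Robo1 at −1.41 to Epha8 at 4.26, and Epha7 at P20.

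Between the ages, 3 guidance genes were higher (Sema3d, Ntng2 and Efnb3) and 1 lower (Nrp2) at P28 than at P20 in Smo*, of 62 tested, when 3.46% of all 14790 genes tested were called (1.98% higher and 1.47% lower), and 18 members (29%) had an unadjusted limma p under 0.05, beside 22.8% of all genes. In WT, 13 members were higher and 9 lower at P28, when 25.4% of all genes were called, 13.5% higher and 11.9% lower. Of the 16 dermal papilla markers, 10 were called higher at P28 in WT and 1 in Smo*. Also called higher in WT were 1 dermal fibroblast, 2 Schwann cell, 2 smooth muscle and 1 keratinocyte marker, and lower were 2 dermal fibroblast and 1 endothelial marker. In Smo*, 1 endothelial and 1 smooth muscle marker were also called higher. The part of these shifts in the member values was not tested. The ages did not overlap for 13 members higher and 4 lower at P28 in Smo*, beside 24.4% of all genes (12.2% higher and 12.1% lower), and for 18 higher and 13 lower in WT, beside 45.1% of all genes (23.6% higher and 21.6% lower). Those higher in WT at P28 were Ephb1, Unc5c, Ntng1, Ntng2, Efnb3, Robo1, Epha4, Efnb1, Efna4, Efna5, Plxnd1, Plxnb2 and Slit3, and those lower were Plxnb3, Sema3a, Plxnc1, Nrp1, Nrp2, Ntn1, Ephb2, Sema6a and Plxna1. Without P28 Smo* replicate 3 the count in Smo* was 11, with Efnb1, Efnb2, Epha7, Ntng1, Sema4g and Unc5c also higher and Plxnb1 also lower. It was 0 without P28 Smo* replicate 1 or without P20 Smo* replicate 3, and 1 without P28 Smo* replicate 2 or without P20 Smo* replicate 1. Efnb3, Nrp2 and Ntng2 were called in the same direction in both genotypes. The log2 changes with age in Smo* and in WT had a Pearson correlation of 0.315 over the 62 members, beside 0.395 over all genes tested. The Smo* over WT value at P28 minus that at P20, tested as an interaction, was called for 8 members: Sema3a, Sema3b, Sema3c and Ephb2 had the larger Smo* over WT value at P28, and Ntng1, Ntng2, Robo1 and Efna5 had the smaller one. Of all genes tested, 4.72% were called in the interaction, 1.89% with the larger and 2.83% with the smaller value at P28. Without P28 Smo* replicate 3 the interaction was called for 9 members: Sema3b, Ntng1, Ntng2 and Robo1 remained, Sema3a, Sema3c, Ephb2 and Efna5 did not, and Epha4, Epha7, Plxnc1, Sema6a and Unc5c were added. It was called for Ntng1 alone without P28 WT replicate 2 or 3, for 2 to 5 members without P28 Smo* replicate 1, P20 Smo* replicate 1 or 3 or any 1 P20 WT library, and for 12 without P28 Smo* replicate 2.

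**Figure D3:**
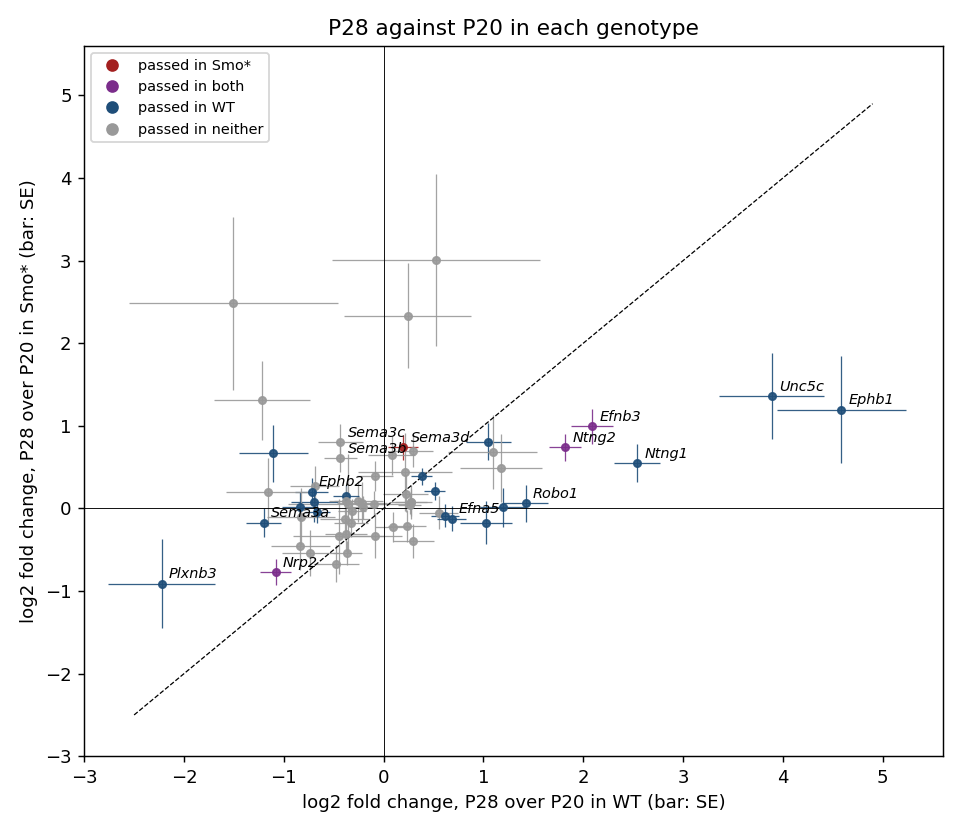
Change with age of each of 62 guidance genes, as the log2 fold change of P28 over P20 in Smo* (vertical axis) against that in WT (horizontal axis), with bars for the standard error and names on the 8 genes called in the interaction and some others. Ntng1 lies at 0.55 in Smo* and 2.54 in WT, and Sema3a at −0.17 in Smo* and −1.20 in WT.

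Among the secreted semaphorins, Sema3a, a repellent of sensory and sympathetic axons that acts through Nrp1, was higher in Smo* at P28. Its normalized counts were 1619, 1611 and 1877 in P28 Smo*, against 1022, 987 and 798 in P28 WT, and 1782, 2575 and 1529.6 in P20 Smo*, against 2372, 2153 and 1927 in P20 WT. All 3 P28 WT libraries lay below the other 9. The Smo* over WT value was 0.87 ± 0.14 (SE) at P28 (limma adjusted p = 0.00908) and −0.16 at P20 (limma adjusted p = 0.816), and the interaction was 1.03 ± 0.25 (limma adjusted p = 0.0379). The interaction call ended without any 1 of 9 of the 12 libraries (highest limma adjusted p = 0.106), P28 Smo* replicate 3 among them, while the P28 call held in every alternative run. In WT, Sema3a was 1.20 lower at P28 than at P20 on the log2 scale (limma adjusted p = 0.000499).

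Sema3g, a secreted semaphorin known from vessels, had 2059.6, 2252 and 1609.7 normalized counts in P28 Smo*, against 1197, 950.2 and 1080.2 in P28 WT. In P20 Smo* it had 1899, 2234 and 3477, against 730.3, 1563 and 1298 in P20 WT. Smo* lay above WT without overlap at both ages. The log2 fold change was 0.87 ± 0.16 (SE) at P28 (limma adjusted p = 0.0152) and 1.10 ± 0.31 at P20, which did not pass (limma adjusted p = 0.209). The P28 call ended in the fit of all 12 libraries and without P28 WT replicate 2 or 3 (highest limma adjusted p without a library = 0.0691). The summed level of 10 endothelial markers was 3678 to 6315 in P28 Smo*, against 1826 to 3450 in P28 WT, and 2763 to 3118 in P20 Smo*, against 1701 to 3629 in P20 WT; none of the 10 was at 0 over a group. Of them Pecam1, Vwf and Cdh5 were called higher in P28 Smo*, by 1.53, 1.93 and 4.37 on the log2 scale. The part of such cells in the levels of Sema3g and of Nrp1, Plxnd1, Efnb2, Ephb4, Unc5b and Robo4, which vessels also use, was not tested.

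Sema3b and Sema3c, the most abundant semaphorins, had their larger Smo* over WT value at P28. Sema3b had 9795, 8489 and 9788 normalized counts in P28 Smo*, against 7853, 5815 and 5422 in P28 WT, and 6922, 5129 and 6452 in P20 Smo*, against 7905, 10138 and 7629.7 in P20 WT. Sema3c had 9034, 7352 and 11255 in P28 Smo*, against 9408, 5363 and 5813 in P28 WT, and 4969.9, 6376 and 4431 in P20 Smo*, against 10423, 8944 and 7759 in P20 WT. Smo* lay below WT without overlap at P20 for both genes; at P28 it lay above without overlap for Sema3b, and the groups overlapped for Sema3c. The interaction was 1.04 ± 0.23 (SE) for Sema3b (limma adjusted p = 0.0281) and 1.24 ± 0.32 for Sema3c (limma adjusted p = 0.0457). Of 18 alternatives, the Sema3b call ended in 6, each without 1 library (highest limma adjusted p = 0.0821), and the Sema3c call in 11, namely no filter, edgeR and 9 of the 12 left-out libraries (highest limma adjusted p = 0.122). The sums of dermal fibroblast markers given above, made up mostly of Col1a1, likewise lay higher in Smo* at P28 and lower at P20, without overlap. Pdgfra of the same list was called lower in Smo* at P28 (−0.57, limma adjusted p = 0.0408). The part of dermal fibroblasts in these levels was not tested. By limma none of the 4 single genotype differences passed: Sema3b gave 0.57 at P28 and −0.47 at P20, and Sema3c gave 0.45 at P28 and −0.79 at P20. DESeq2 (adjusted p = 0.0174) and the authors' deposited table (adjusted p = 0.0214) called Sema3b higher in Smo* at P28.

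Sema3d was lower in Smo* at P20 without passing the test. It had 1271, 1232 and 1086 normalized counts in P20 Smo*, against 2672, 2184 and 1822 in P20 WT, and the log2 fold change was −0.88 (limma adjusted p = 0.0509). In P28 Smo* it had 2279, 1782 and 1949.8, so that Sema3d was 0.74 ± 0.15 (SE) higher at P28 than at P20 in Smo* (limma adjusted p = 0.0263), a call that ended without P28 Smo* replicate 1 or P20 Smo* replicate 1 or 3 (highest limma adjusted p = 0.0942). Neither Sema3e, which signals through Plxnd1 without a neuropilin, nor Sema3f, a ligand of Nrp2, was called by limma in any comparison. Sema3e was among the least even members, at 229, 159 and 739 normalized counts in P20 Smo*.

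Sema5b, a membrane semaphorin with thrombospondin repeats, had the smallest adjusted p of all members in the P28 comparison. It had 261, 250.4 and 409 normalized counts in P28 Smo*, against 35.0, 20.2 and 38.7 in P28 WT, and 318, 270.0 and 205 in P20 Smo*, against 38.4, 60.4 and 138 in P20 WT. No WT library reached any Smo* library at either age. Its genotype difference on the log2 scale was 3.27 ± 0.34 (SE) at P28 (limma adjusted p = 0.00136), called also in every alternative run, and 1.91 ± 0.43 at P20 (limma adjusted p = 0.112). Sema6a, a membrane ligand of Plxna2 and Plxna4, had 1783, 1831 and 1494 in P28 Smo*, against 894, 906 and 995 in P28 WT, a difference of 0.87 ± 0.13 (limma adjusted p = 0.00608). Sema4c, a ligand of Plxnb2, had 3148, 2787 and 3048 in P28 Smo*, against 2109.7, 1757 and 2014 in P28 WT, a difference of 0.61 ± 0.12 (limma adjusted p = 0.0179) that was not called without P28 Smo* replicate 1 or P28 WT replicate 2 or 3 (highest limma adjusted p = 0.0748). In WT, Sema6a was also called between ages, 0.66 lower at P28 than at P20 on the log2 scale. The other 9 membrane semaphorins (Sema4a, Sema4b, Sema4d, Sema4f, Sema4g, Sema6b, Sema6c, Sema6d and Sema7a) were called by limma in no comparison.

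Promoter sequences are shown for Sema3g and Sema5b, which were higher in Smo* at P28, because Gli factors, which carry the Hedgehog signal to the genome, bind sites with the core CCACCCA. Both windows run from 250 bases before to 50 after the RefSeq start site (assembly GRCm38.p6), on the strand of the gene, at chr14:31217623-31217922 (+) for Sema3g and chr16:35541112-35541411 (+) for Sema5b. Capitals mark a match to CCACCCA or its reverse complement TGGGTGG.
Sema3g: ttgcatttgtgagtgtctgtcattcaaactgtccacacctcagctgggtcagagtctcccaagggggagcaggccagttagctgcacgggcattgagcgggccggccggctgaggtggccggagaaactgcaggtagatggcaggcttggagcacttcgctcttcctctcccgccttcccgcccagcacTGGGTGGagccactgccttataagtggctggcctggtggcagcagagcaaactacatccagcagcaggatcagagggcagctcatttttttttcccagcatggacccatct
Sema5b: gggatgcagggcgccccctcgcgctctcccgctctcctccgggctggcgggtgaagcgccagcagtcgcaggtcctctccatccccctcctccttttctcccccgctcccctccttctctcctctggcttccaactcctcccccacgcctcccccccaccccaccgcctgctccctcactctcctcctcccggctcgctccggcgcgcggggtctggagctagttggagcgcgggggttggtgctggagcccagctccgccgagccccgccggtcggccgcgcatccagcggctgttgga
The Sema3g window holds 1 match, at position −61 from the start site, and the Sema5b window, with 73% G or C, holds none. Of 75 windows of the 59 members that matched the RefSeq table, 7 hold the letters, in Ntng2, Plxna2, Robo2, Sema3c, Sema3g, Sema4a and Sema6c, beside 9.30% of all 32851 windows of that length. Of the 12 members called higher in Smo* at P28, only Sema3g is among these. The longer form GACCACCCA, searched on both strands and containing the shorter one, is in 0 of the 75 windows and 0.253% of all. A match is a description of letters and not a site.

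Among the semaphorin receptors, Plxnb1, the receptor for Sema4d, was higher in Smo* at P28. It had 508, 506 and 753 normalized counts in P28 Smo*, against 284, 269.6 and 263 in P28 WT, and 953, 826 and 996 in P20 Smo*, against 338, 290.3 and 552 in P20 WT. Smo* lay above WT at both ages. The log2 fold change was 1.08 ± 0.19 (SE) at P28 (limma adjusted p = 0.0134) and 1.28 ± 0.23 at P20 (limma adjusted p = 0.0576). The P28 call ended without P28 WT replicate 2 or 3 (highest limma adjusted p = 0.0609). Plxnc1, the receptor for Sema7a, had 255, 158 and 122 in P28 Smo*, against 44.4, 52.3 and 42.4 in P28 WT, a difference of 1.86 ± 0.33 (limma adjusted p = 0.0135), not called without P28 WT replicate 3 (limma adjusted p = 0.0589). At P20 its groups overlapped, at 165, 78.4 and 93.1 in Smo* and 72.3, 111 and 126 in WT. In WT, Plxnc1 was 1.11 lower at P28 than at P20 on the log2 scale, a call that ended without a filter and in 5 of 6 fits without 1 library, the exception being P20 WT replicate 1 (highest limma adjusted p = 0.119).

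Plxnd1, the receptor for Sema3e, was the one plexin lower in Smo* at P28. It had 3684, 4331 and 4323 normalized counts in P28 Smo*, against 5845, 5891 and 6070.2 in P28 WT, without overlap, and the log2 fold change was −0.53 ± 0.11 (SE; limma adjusted p = 0.025). That call ended without P28 Smo* replicate 1 or any 1 P28 WT library (highest limma adjusted p = 0.11). In WT, Plxnd1 was 0.61 higher at P28 than at P20. Plxnb2, the most abundant plexin, had 10164, 10702 and 8736 in P28 Smo*, against 11824, 10919.9 and 11056 in P28 WT, and was not called between genotypes; in WT it was 0.51 higher at P28 than at P20. Plxna1, which pairs with neuropilins, was 0.38 lower in WT at P28 than at P20 (limma adjusted p = 0.0479), a call that ended in 7 of 12 alternatives, namely no filter, edgeR and the fits without each WT library other than P28 WT replicate 1 (highest limma adjusted p = 0.162). X-linked Plxnb3 was low, at 3.41, 7.13 and 8.29 in P28 WT, against 24.9, 32.3 and 38.5 in P20 WT, a change of −2.22 ± 0.54 (limma adjusted p = 0.01) between libraries that also differ in sex. Plxna2, Plxna3 and Plxna4 were called by limma in no comparison.

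Both neuropilins were lower at P28 than at P20 in WT, and Nrp2 also in Smo*. Nrp1, a co-receptor for Sema3a and for the vessel growth factor Vegfa, had 4897, 3398 and 4648 normalized counts in P28 Smo*, against 3093, 2124 and 1759.7 in P28 WT. The P28 Smo* libraries lay above all P28 WT libraries, and the difference of 0.91 ± 0.23 (SE; limma adjusted p = 0.0439) was 0.85 without P28 Smo* replicate 3 (limma adjusted p = 0.0706), and it was also not called without P28 Smo* replicate 1 or P28 WT replicate 2 or 3 (highest limma adjusted p = 0.151). In P20 WT it had 2917, 3938 and 4269, so that the change in WT was −0.69 ± 0.23 (limma adjusted p = 0.0469), a call that ended without a filter, with edgeR and without replicate 2 or 3 of either WT group (highest limma adjusted p = 0.187). Nrp2, the co-receptor for Sema3f, had 4222, 3504 and 5199 in P28 Smo*, against 6620.4, 7393 and 7787 in P20 Smo*, and 2941, 2779 and 2917 in P28 WT, against 6405, 4956 and 7108 in P20 WT. The P28 libraries lay below the P20 libraries of their genotype without overlap. Its change was −0.77 ± 0.16 in Smo* (limma adjusted p = 0.0257) and −1.08 ± 0.16 in WT (limma adjusted p = 0.00046), and the interaction of 0.31 did not pass (limma adjusted p = 0.44). The Nrp2 call in Smo* ended without P28 Smo* replicate 1 or 2 or P20 Smo* replicate 2 or 3 (highest limma adjusted p = 0.0914).

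Among the ephrins, Efna5, a lipid-anchored ligand of EphA receptors, was lower in Smo* at P28. It had 1536, 1631 and 1313 normalized counts in P28 Smo*, against 2365, 3247 and 2759.8 in P28 WT, and 1710.4, 1369 and 1815 in P20 Smo*, against 1877, 1748 and 1564 in P20 WT. The P28 WT libraries lay above the other 9. On the log2 scale Smo* over WT was −0.90 ± 0.15 (SE) at P28 (limma adjusted p = 0.0109) and −0.09 at P20 (limma adjusted p = 0.866), and the interaction was −0.80 ± 0.21 (limma adjusted p = 0.0479). The interaction call ended in 10 of 18 alternatives, namely no filter and 9 of the 12 left-out libraries, P28 Smo* replicate 3 among them (highest limma adjusted p = 0.112), and the P28 call without P28 WT replicate 3 (limma adjusted p = 0.0527). In WT, Efna5 was 0.68 higher at P28 than at P20. Efna4 was 1.02 higher at P28 than at P20 in WT, with 207, 145 and 226 in P28 WT, against 93.8, 104 and 80.9 in P20 WT (limma adjusted p = 0.0134), and was not called without replicate 3 of either WT group (highest limma adjusted p = 0.0632). Efna1, Efna2 and Efna3 were called by limma in no comparison.

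Efnb1, the X-linked transmembrane ephrin and the most abundant one, was about as far apart between genotypes at both ages. It had 4556, 7464 and 3904 normalized counts in P28 Smo*, against 2970.0, 2627 and 3169.5 in P28 WT, and 2264, 3306 and 3310.2 in P20 Smo*, against 1418, 1188 and 1659 in P20 WT. Smo* lay above WT without overlap at both ages. The log2 fold change was 0.81 ± 0.23 (SE) at P28 (limma adjusted p = 0.0671) and 1.05 ± 0.18 at P20 (limma adjusted p = 0.0517), and without P28 Smo* replicate 3 the P28 value was 1.0 (limma adjusted p = 0.0191). In WT, Efnb1 was 1.05 higher at P28 than at P20, between libraries that also differ in sex.

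Efnb3, a transmembrane ephrin known from the midline of the nervous system, was higher at P28 in both genotypes. It had 1024, 990.1 and 618 normalized counts in P28 Smo*, against 467, 465 and 365 in P20 Smo*, and 994, 827 and 1006 in P28 WT, against 201, 194 and 273 in P20 WT. The ages did not overlap in either genotype. The change was 0.99 ± 0.21 (SE) in Smo* (limma adjusted p = 0.0286) and 2.09 ± 0.21 in WT (limma adjusted p = 3.56e-05), and the interaction of −1.10 did not pass (limma adjusted p = 0.0535). The call in Smo* ended without P28 Smo* replicate 1 or 2 or P20 Smo* replicate 1 or 3 (highest limma adjusted p = 0.102). Efnb2, the ligand of Ephb4 in vessels, had 1824, 2349 and 1281 in P28 Smo*, against 1443, 1493 and 1273 in P28 WT, and was not called with all libraries. Without P28 Smo* replicate 3 it was 0.56 higher in Smo* at P28 (limma adjusted p = 0.0484).

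Among the Eph receptors, Epha8 had the largest genotype difference of all members. It had 152, 106 and 213 normalized counts in P28 Smo*, against 17.9, 5.94 and 2.76 in P28 WT, and 32.0, 23.5 and 32.9 in P20 Smo*, against 10.2, 2.08 and 7.71 in P20 WT. Smo* lay above WT at both ages, and the lowest WT values were at or under the level of 3 reads. The genotype difference was 4.26 ± 0.63 (SE) at P28 (limma adjusted p = 0.0067), called in every alternative run, and 2.17 ± 0.59 at P20 (limma adjusted p = 0.2). Epha8 was not called between ages in Smo*, at 2.33 ± 0.64 (limma adjusted p = 0.0614). Its promoter window, chr4:136956767-136957066 on the minus strand of GRCm38.p6, is shown because the gene lies far above WT in Smo*; it has 84.3% G or C, holds 56 CG pairs and none of the core letters.
Epha8: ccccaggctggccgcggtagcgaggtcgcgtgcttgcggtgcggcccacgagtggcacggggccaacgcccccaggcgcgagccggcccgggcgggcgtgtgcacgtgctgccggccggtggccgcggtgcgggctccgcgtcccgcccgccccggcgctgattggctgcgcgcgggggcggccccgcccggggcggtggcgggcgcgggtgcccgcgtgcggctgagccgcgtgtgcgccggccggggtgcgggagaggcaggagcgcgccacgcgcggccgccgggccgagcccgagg

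Epha7 was the one member called between genotypes at P20. It had 898, 1187 and 1249 normalized counts in P20 Smo*, against 595, 563 and 554 in P20 WT, without overlap, and the log2 fold change was 0.95 ± 0.15 (SE; limma adjusted p = 0.0367). This call ended in 7 of 14 alternatives, namely the fit of all 12 libraries, the authors' deposited table and the fits without P20 Smo* replicate 2 or 3 or any 1 P20 WT library (highest limma adjusted p = 0.153). In P28 Smo* Epha7 had 2135, 3084 and 508, against 652, 682 and 653 in P28 WT. Replicate 3 lay below all WT libraries and the other Smo* libraries above them, so the P28 value was 1.17 ± 0.57 (limma adjusted p = 0.233) with that library and 1.95 ± 0.17 without it (limma adjusted p = 0.000381).

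Epha4, which binds ephrins of both classes, was the most abundant EphA receptor. It had 2384, 2808 and 1282 normalized counts in P28 Smo*, against 3171, 4199.8 and 4328 in P28 WT, without overlap, yet the log2 fold change of −0.92 did not pass (limma adjusted p = 0.0856). In P20 WT it had 1666, 1762 and 1627, so that Epha4 was 1.20 ± 0.23 (SE) higher at P28 than at P20 in WT (limma adjusted p = 0.00306). Epha1, Epha2 and Epha3 were called by limma in no comparison; reads of Epha1 may include those of Zyx, which overlaps it on the opposite strand and averaged 2534 normalized counts.

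Ephb2, a receptor for ephrin-B ligands, was higher in Smo* at P28. It had 3434, 3712 and 4665 normalized counts in P28 Smo*, against 2041, 1426 and 1539 in P28 WT, and 3293, 4085 and 2909.5 in P20 Smo*, against 2718, 2644 and 2793 in P20 WT. Smo* lay above WT without overlap at both ages. The log2 fold change was 1.24 ± 0.17 (SE) at P28 (limma adjusted p = 0.00502), called in every alternative run, and 0.32 at P20 (limma adjusted p = 0.418), with an interaction of 0.92 ± 0.23 (limma adjusted p = 0.0426). The interaction call ended in 10 of 18 alternatives, namely no filter, edgeR and 8 of the 12 left-out libraries, P28 Smo* replicate 3 among them (highest limma adjusted p = 0.113). In WT, Ephb2 was 0.72 lower at P28 than at P20.

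Ephb1, another receptor for ephrin-B ligands, had the largest change with age of all members in WT. It had 625, 652 and 611 normalized counts in P28 WT, against 23.7, 33.3 and 20.2 in P20 WT, a change of 4.59 ± 0.65 (SE; limma adjusted p = 0.000426). The Smo* libraries were at 533, 547 and 364 at P28, against 298, 603 and 48.4 at P20. All 3 P20 Smo* libraries lay above P20 WT, with a wide spread, and the genotype difference of 2.98 ± 0.79 at P20 did not pass (limma adjusted p = 0.181). Gm26846, which overlaps Ephb1 on the opposite strand, averaged 31.0. The remaining EphB receptors were called by limma in no comparison. Ephb4 had 4134, 5281 and 5163 in P28 Smo*, against 4365, 4636 and 4587 in P28 WT. Ephb3 was 0.75 higher in Smo* at P28 without overlap (limma adjusted p = 0.0915), and was called there by DESeq2 (adjusted p = 0.0138) and in the authors' deposited table (adjusted p = 0.0175). Ephb6, whose kinase domain is inactive, was 0.61 higher in Smo* at P20 without overlap (limma adjusted p = 0.221).

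**Figure D4:**
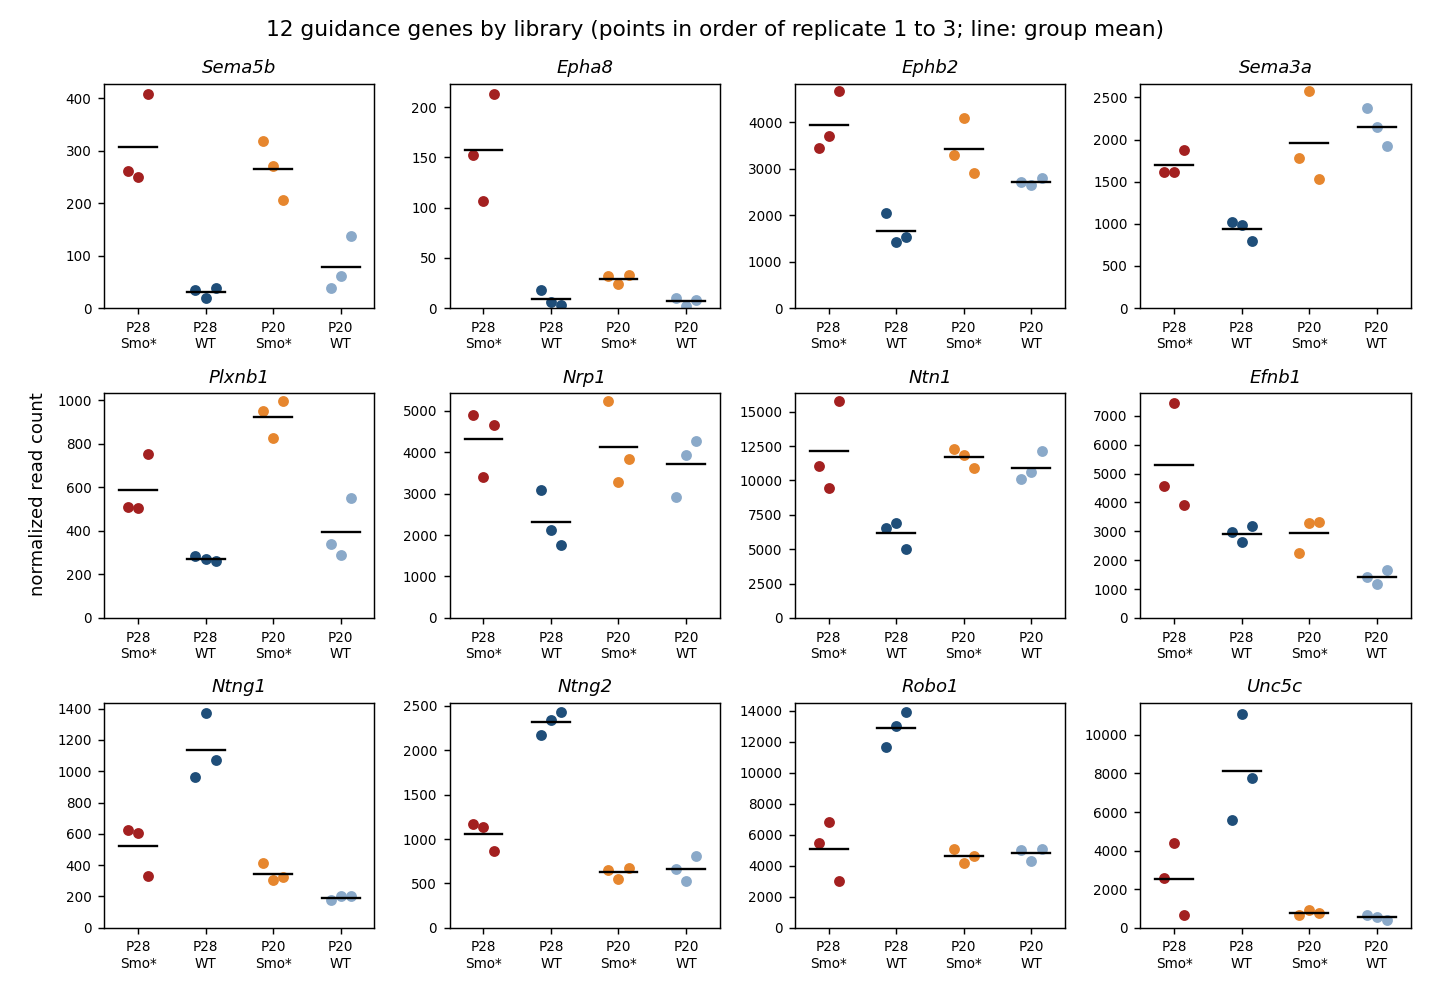
Normalized counts of 12 guidance genes in each of the 12 libraries, on axes that start at 0, with P28 Smo*, P28 WT, P20 Smo* and P20 WT from left to right, 1 point per library and a line at the group mean. Sema5b and Epha8 lie above WT in every Smo* library, and Ntng1 and Robo1 are highest in P28 WT, at 960.1 to 1374 and 11639 to 13942.

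Among the netrins, Ntn1, the secreted ligand of Dcc and Unc5 receptors, was higher in Smo* at P28. It had 11088, 9478 and 15791 normalized counts in P28 Smo*, against 6523, 6898 and 5017 in P28 WT, and 12258, 11874 and 10914 in P20 Smo*, against 10074, 10612 and 12139 in P20 WT. The P28 WT libraries lay below the other 9. Smo* over WT came to 0.96 ± 0.21 (SE) at P28 (limma adjusted p = 0.029) and 0.10 at P20 (limma adjusted p = 0.816), and the interaction of 0.86 did not pass (limma adjusted p = 0.0709). The P28 call ended without P28 Smo* replicate 1 or any 1 P28 WT library (highest limma adjusted p = 0.112). In WT, Ntn1 was 0.84 lower at P28 than at P20. Ntn4, a netrin of basement membranes, had 1902, 1096 and 1349.8 in P28 Smo*, against 1324, 1168 and 951 in P28 WT, and was called by limma in no comparison.

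Ntng1 and Ntng2, the netrin-G genes, were lower in Smo* at P28 and higher at P28 than at P20 in WT. Ntng1 had 626, 607 and 334 normalized counts in P28 Smo*, against 960.1, 1374 and 1074 in P28 WT, and 413, 303 and 322 in P20 Smo*, against 175, 202 and 201 in P20 WT. Smo* lay above WT at P20 and below WT at P28, without overlap at either age. The log2 fold change was −1.16 ± 0.26 (SE) at P28 (limma adjusted p = 0.0316) and 0.83 ± 0.18 at P20 (limma adjusted p = 0.0954), and the interaction of −1.99 ± 0.33 (limma adjusted p = 0.00641) was called in all 18 alternatives. The P28 genotype call ended without any 1 P28 WT library (highest limma adjusted p = 0.125). Its P28 over P20 value was 0.55 in Smo* (limma adjusted p = 0.187) and 2.54 ± 0.23 in WT (limma adjusted p = 1.95e-05). Without P28 Smo* replicate 3, Ntng1 was called higher at P28 than at P20 in Smo* as well.

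Ntng2 had 1165, 1131 and 859.9 normalized counts in P28 Smo*, against 2175, 2342 and 2434 in P28 WT, and 649.6, 555 and 672 in P20 Smo*, against 661, 531 and 806 in P20 WT. The genotypes overlapped at P20 and were apart at P28. Its log2 fold change was −1.15 ± 0.14 (SE) at P28 (limma adjusted p = 0.00297), called in every alternative run, and −0.07 at P20 (limma adjusted p = 0.92), with an interaction of −1.08 ± 0.23 (limma adjusted p = 0.0235). Ntng2 was 0.74 higher at P28 than at P20 in Smo* (limma adjusted p = 0.0348) and 1.82 higher in WT (limma adjusted p = 1.7e-05). The call in Smo* held without P28 Smo* replicate 3 and ended without each of the other 5 Smo* libraries (highest limma adjusted p = 0.106), and the interaction call ended without P28 WT replicate 2 or 3, P20 Smo* replicate 3 or P20 WT replicate 2 (highest limma adjusted p = 0.0734).

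The promoter windows of both netrin-G genes are shown because both genes were lower in Smo* at P28; they lie on the minus strand, at chr3:110143423-110143722 for Ntng1 and chr2:29248050-29248349 for Ntng2, in RefSeq's GRCm38.p6. Capitals mark the core CCACCCA, which the Ntng2 window holds once, at position 37 after the start site, and the Ntng1 window does not hold. The Ntng1 window has 28 CG pairs and 59.7% G or C, and the Ntng2 window has 6 CG pairs and 55% G or C.
Ntng1: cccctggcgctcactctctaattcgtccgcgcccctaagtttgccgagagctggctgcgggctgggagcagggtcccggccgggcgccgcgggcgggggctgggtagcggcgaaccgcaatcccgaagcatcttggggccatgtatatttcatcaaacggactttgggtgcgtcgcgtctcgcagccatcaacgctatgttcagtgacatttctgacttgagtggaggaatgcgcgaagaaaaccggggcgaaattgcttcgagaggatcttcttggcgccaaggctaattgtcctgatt
Ntng2: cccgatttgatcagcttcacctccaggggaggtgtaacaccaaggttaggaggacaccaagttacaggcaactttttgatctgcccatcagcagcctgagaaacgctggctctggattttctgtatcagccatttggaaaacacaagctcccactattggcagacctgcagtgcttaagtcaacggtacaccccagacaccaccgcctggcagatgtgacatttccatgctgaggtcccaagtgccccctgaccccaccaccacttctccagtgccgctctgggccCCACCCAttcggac

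Among the Unc5 receptors of netrins, Unc5d was higher and Unc5b lower in Smo* at P28. Unc5d had 106, 120.4 and 111 normalized counts in P28 Smo*, against 27.3, 9.5 and 12.9 in P28 WT, a difference of 2.82 ± 0.45 (SE; limma adjusted p = 0.00889) called in every alternative run. Unc5b, which also acts in vessels, had 1614, 1934 and 1280.3 in P28 Smo*, against 2745, 3057 and 2418 in P28 WT, a difference of −0.78 ± 0.17 (limma adjusted p = 0.0285) that was not called without P28 Smo* replicate 1 or any 1 P28 WT library (highest limma adjusted p = 0.115). Neither gene's groups overlapped at P28, and at P20 both overlapped.

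Unc5c was the Unc5 gene with the widest range. It had 2584, 4381 and 646 normalized counts in P28 Smo*, against 5579.8, 11103 and 7752 in P28 WT, and 641, 902 and 747 in P20 Smo*, against 652, 562 and 401 in P20 WT. P28 Smo* replicate 3 was at the level of the P20 libraries. The P28 difference was −2.01 ± 0.62 (SE; limma adjusted p = 0.0882) with that library and −1.22 ± 0.31 without it (limma adjusted p = 0.0431). In WT, Unc5c was 3.89 ± 0.52 higher at P28 than at P20 (limma adjusted p = 0.00031). Unc5a stayed low, at 82.6, 23.7 and 58.8 in P28 Smo*, against 26.5, 9.5 and 2.76 in P28 WT, and was not called.

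Slit3 was high in every library, with 24126, 23216 and 23843 normalized counts in P28 Smo*, against 21055, 21693 and 19935 in P28 WT, and 19468, 16528 and 18503 in P20 Smo*, against 16369, 15143 and 16655 in P20 WT. The genotypes did not overlap at P28 but the difference of 0.18 did not pass (limma adjusted p = 0.389); in WT, Slit3 was 0.38 higher at P28 than at P20 (limma adjusted p = 0.0183), though not without replicate 2 of either WT group (highest limma adjusted p = 0.0744). Slit2 was called by limma in no comparison.

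Robo1, a receptor for Slits, had 5475, 6825 and 3039.7 normalized counts in P28 Smo*, against 11639, 13035 and 13942 in P28 WT, and 5099, 4195 and 4659 in P20 Smo*, against 4992, 4330.2 and 5072 in P20 WT. The 3 P28 WT libraries lay above the other 9. Its genotype difference on the log2 scale was −1.41 ± 0.27 (SE) at P28 (limma adjusted p = 0.0182), or −1.07 ± 0.15 without P28 Smo* replicate 3 (limma adjusted p = 0.0035), and −0.05 at P20 (limma adjusted p = 0.929). The interaction was −1.36 ± 0.32 (limma adjusted p = 0.0348), a call that ended without any 1 P20 library and without P28 WT replicate 2 or 3 (highest limma adjusted p = 0.0957). The P28 call ended without P28 WT replicate 2 or 3 (highest limma adjusted p = 0.077). In WT, Robo1 was 1.42 ± 0.23 higher at P28 than at P20 (limma adjusted p = 0.00086). Robo2 had 7601, 8946 and 5329.7 in P28 Smo*, against 6504, 7992 and 7650.3 in P28 WT, and was called by limma in no comparison. Robo4, known from endothelium, was low and uneven, at 66.1, 19.0 and 25.7 in P28 Smo*, against 13.7, 9.5 and 4.6 in P28 WT, and 11.4, 0 and 15.5 in P20 Smo*, against 10.2, 19.8 and 83.8 in P20 WT; it was not called.

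A list of 52 other genes of guidance signalling holds co-receptors, co-ligands and downstream proteins. It was drawn up with earlier results of these data known, so its shares only describe it. In this list 8 were higher and 6 lower in Smo* at P28, of 51 tested (27.5%, beside 8.9% of all genes). By limma 0 were called at P20, where 14 (27.5%, beside 11.4% of all genes) had an unadjusted limma p under 0.05. At P20 edgeR also called 0, DESeq2 called 5, and 3 were called in the authors' deposited table. Among those called, the largest P28 differences were in Chn2 (4.89 on the log2 scale) and Chn1 (−1.49), both chimaerins that switch off Rac below Eph receptors and plexins, Flrt1 (−2.37), a membrane protein of the family that binds Unc5 receptors, and Vav3 (−2.18), a Rac activator. Between ages, 3 were higher and 2 lower at P28 in Smo* (9.62%, beside 3.46% of all genes), and 10 higher and 5 lower in WT (28.8%, beside 25.4% of all genes). Dcc, the attractive netrin receptor, was 2.68 higher at P28 than at P20 in Smo* (limma adjusted p = 0.0446) and 5.78 higher in WT (limma adjusted p = 8.63e-05). Draxin, a secreted ligand of Dcc, was 2.02 higher in Smo* (limma adjusted p = 0.0431) and 4.20 higher in WT (limma adjusted p = 0.0001). Draxin averaged 3356 ± 2074 normalized counts in P28 Smo* (SD, n = 3). Fits without single libraries are not given for this list. Dcc averaged 1742 ± 1499 normalized counts in P28 Smo*, against 6665 ± 1419 in P28 WT, and 223 ± 119 in P20 Smo*, against 123 ± 42.3 in P20 WT (SD, n = 3 each), and its Smo* over WT value of −2.39 at P28 did not pass (limma adjusted p = 0.0616).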

How the data were processed

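RNA of FACS-sorted dermal papilla cells was sequenced after ribosomal depletion with a directional kit, per the labels' protocols. The deposited tables hold normalized read counts (a signal) that the authors made by dividing counts by a size factor per library; within 0.01 reads, 100% of the values were whole reads. Beside them stand the authors' log2 fold change (WT over Smo*, here given with its sign turned where members are called higher or lower), its standard error on the log2 scale, test statistic (a score), p-value and adjusted p-value. Per the submitters' processing notes, the builds are GRCm38.p4 and mm10, and DESeq2, HTSeq, TopHat2 (version 2) and Trimmomatic were used in roles not stated. No source used here gives the strand setting of the counting. Of the 25887 identifiers, 99.0% received a symbol from GENCODE for GRCm38.

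The members and lists were chosen with earlier results of these data known. The smallest library held 36323058 reads on genes, and the values had been normalized over all 12 libraries together. Tests used limma 3.58.1 in R 4.3.3 with a variance trend on log2(value + 1), keeping genes whose mean reached 10. P-values were adjusted by Benjamini-Hochberg over all genes tested, with calls at 0.05. The added 1 tends to shrink the changes of low genes, but their sizes also depend on the tool. Epha8, Sema5b and Unc5d had the largest called genotype differences at P28, with limma values of 4.26, 3.27 and 2.82. For these genes the authors' deposited table gave smaller values of 3.11, 2.69 and 2.10. Each genotype comparison used the 6 libraries of that age, and comparisons between ages and the interaction used all 12. Genes with all values given were members called with a mean of at least 50, up to 12 per comparison by fold change, and the most abundant member per family; further members with values were chosen after their values were seen. Alternatives were TMM scaling, no filter, a mean of at least 50, a pseudocount of 5, edgeR 4.0.16 and DESeq2 1.42.0 on recovered reads, the authors' adjusted p-values, a fit of all 12 libraries and leaving out each library.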

Additional observations from a re-analysis of the deposited data

Results flagged for a closer look

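The Smo* over WT value was called different between ages for 8 members, by the interaction term of the limma fit of all 12 libraries. Genotype goes with stage at P28 and age goes with sex, so this difference cannot be assigned to Smo* alone. On the log2 scale the Smo* over WT value at P28 minus that at P20 was 1.24 for Sema3c, 1.04 for Sema3b, 1.03 for Sema3a and 0.92 for Ephb2, so that Smo* stood higher relative to WT at P28. It was −1.99 for Ntng1, −1.36 for Robo1, −1.08 for Ntng2 and −0.80 for Efna5, so that Smo* stood lower relative to WT at P28. For Ntng1 and Sema3b the genotypes did not overlap at either age and lay in opposite order at P28 and P20, Ntng1 lower and Sema3b higher in Smo* at P28. Sema3c also had opposite signs, 0.45 at P28 and −0.79 at P20, with groups that overlapped at P28. Over 18 alternatives the call ended in 0 for Ntng1, 4 for Ntng2, 6 for Sema3b, 8 for Robo1, 9 for Sema3a, 10 for Ephb2, 10 for Efna5 and 11 for Sema3c. In Ntng1, Ntng2, Robo1, Efna5, Sema3a and Ephb2 the P28 WT group lay apart from the other 3 groups. Those were not all alike: for Ntng2, P28 Smo* lay above P20 Smo* without overlap. For Ephb2 and Ntng1, P20 Smo* lay above P20 WT without overlap.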

How the results depend on the processing

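No paired analysis was made because the labels give no replicate numbers shared between groups. Each sample title carries a number that the labels do not explain, and whether it marks related libraries is not known. No called value of a member changed sign under an alternative. Of 260 values of members that were not called, 74 had the other sign in at least 1 alternative, none of them called there; they include Efna5, Robo1 and Ntng2 at P20, at 0.031, 0.026 and 0.0093 without P20 Smo* replicate 2. At P20 the main count of 1 member was 2 with TMM scaling, 3 without a filter, 2 with a pseudocount of 5, 12 with DESeq2, 10 in the authors' deposited table and 2 in the fit of all 12 libraries, and 0 to 3 when a library was left out. The main 18 at P28 was 24 with DESeq2, 27 in the authors' deposited table, 23 in the fit of all 12 libraries and 7 to 22 when a library was left out. For P28 over P20 in Smo* the main 4 was 13 with DESeq2 and 0 to 11 when a library was left out. In WT the main 22 was 30 with DESeq2, 19 without a filter and 18 to 24 when a library was left out. The main 8 of the interaction was 5 without a filter, 18 with DESeq2 and 1 to 12 when a library was left out; without P28 WT replicate 2 or 3 it was Ntng1 alone. Over all genes and alternatives the counts ran from 461 to 2880 at P28 (main 1313), from 8 to 480 at P20 (main 102), from 49 to 1615 for P28 over P20 in Smo* (main 511), from 2336 to 4356 in WT (main 3761) and from 254 to 1482 in the interaction (main 698). The cause was not tested. Depth limits members with few reads, such as Robo3 with 11 reads in all.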
